A study of Mus musculus with 4 samples.

Results

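The centromere-proximal ends of the 19 mouse autosomes were taken as positions 3000000 to 8000000 of chromosomes 1 to 19 on genome build mm9, which leaves out the unsequenced first 3 Mb. Each 5 Mb end was divided into tiles of 5 kb, and a tile was kept where the NPC and ESC inputs together held at least 5 distinct reads. Of 19000 proximal tiles, 16612 were kept, out of 452955 kept tiles on all autosomes. Chromosome 14 contributed 38 of its 1000 tiles, and 741 of them held no read in any library. The measure was the number of 5-hydroxymethylcytosine (5hmC) reads per input read, which is called the level here, in neural progenitor cells (NPC) and in embryonic stem cells (ESC). Levels were set against the remainder of the same chromosome, beyond 8 Mb, which is called the rest.

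Mouse chromosomes are acrocentric, so the assembled sequence starts beside the pericentromeric satellite repeats, and the ends of separate autosomes have a like position next to constitutive heterochromatin. 5hmC is made when TET enzymes oxidise 5-methylcytosine, and in embryonic stem cells it is found in gene bodies, enhancers and some promoters. Satellite and other repeated sequence near centromeres is hard to assemble and to align short reads to.

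The series holds 4 libraries, with 1 library per group. NPC were rosette-like Sox1-GFP+ cells at day 9 of a monolayer N2B27 neural differentiation of 46C mouse ES cells, a line of strain 129/Ola. ESC were 46C cells kept in medium with 10% serum and leukemia inhibitory factor at 1000 U/ml. No siRNA or shRNA was applied, so the groups differ in cell state and in the time and medium that lead to it, which cannot be told apart. Both DNAs carried barcodes and were precipitated in one tube by a 5hmC antibody, so a ratio of the NPC level to the ESC level can be read between cell types, while a level alone depends on sequencing depth. On chromosomes 1 to 19 there were 1709355 distinct reads in the NPC 5hmC library and 6438000 in its input, and 7042662 in the ESC 5hmC library and 4944294 in its input. Without replicates there is no test, and each interval below is a 95% interval for counting error alone. The identity of the cells cannot be checked against marker genes in these DNA libraries.

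Proximal ends carried less 5hmC per input than the rest of the autosomes in both cell types. In NPC the proximal level was 0.244 (0.242 to 0.246), from 54870 5hmC reads and 225032 input reads, against 0.266 in the rest. In ESC it was 1.24 (1.23 to 1.245), from 218573 and 176662 reads, against 1.43 in the rest. The proximal level over the rest was therefore 0.916 (0.907 to 0.925) in NPC and 0.864 (0.858 to 0.8695) in ESC. The NPC/ESC ratio of levels was 0.197 (0.195 to 0.199) in proximal ends and 0.186 in the rest, a quotient of 1.06 (1.05 to 1.07). These sums give most weight to the chromosomes with most reads: without chromosomes 11 and 19, a choice made after their values were seen, the ESC level over the rest was 0.7425 and the quotient of ratios 1.22, while the NPC level over the rest was 0.9075.

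The distal 5 Mb of the same chromosomes differed in the opposite direction from their rest. The distal level was 0.298 in NPC and 1.75 in ESC, which was 1.13 and 1.24 times that of the rest. Set directly against the distal ends, the proximal level was 0.819 (0.809 to 0.8285) in NPC and 0.7075 (0.702 to 0.713) in ESC. Single chromosomes did not all share this order. The proximal level was above the distal one on 7 of 19 chromosomes in NPC and on 7 of 19 in ESC, and chromosomes 17 and 18 had proximal ESC levels of 1.68 and 0.853, above their distal levels of 0.464 and 0.356.

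In NPC the proximal level was below the rest on 13 of 19 chromosomes, and in ESC on 14 of 19. Most stretches of a chromosome lie below its read-weighted level, so these counts are read against all windows of 5 Mb, of which 60.7% were below the rest in NPC and 59.7% in ESC; the proximal shares were 68.4% and 73.7%. The NPC/ESC ratio was above the rest on 16 of 19 chromosomes, 84.2%, where 60.9% of all 5 Mb windows were. Over 18 chromosomes without chromosome 14, the proximal NPC level spanned 1.53-fold and the ESC level 5.05-fold. Windows of 5 Mb at 10 other distances, up to 58 Mb, spanned 1.33-fold to 2.10-fold in NPC and 3.08-fold to 6.23-fold in ESC over the same chromosomes, and 7 of the 10 spanned more than the proximal ends in NPC and 3 in ESC. Across these 18 chromosomes the levels over the rest in NPC and ESC had a Pearson correlation of 0.775 on the log2 scale, as a description of points that share their tiles and inputs.

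**Figure D1:**
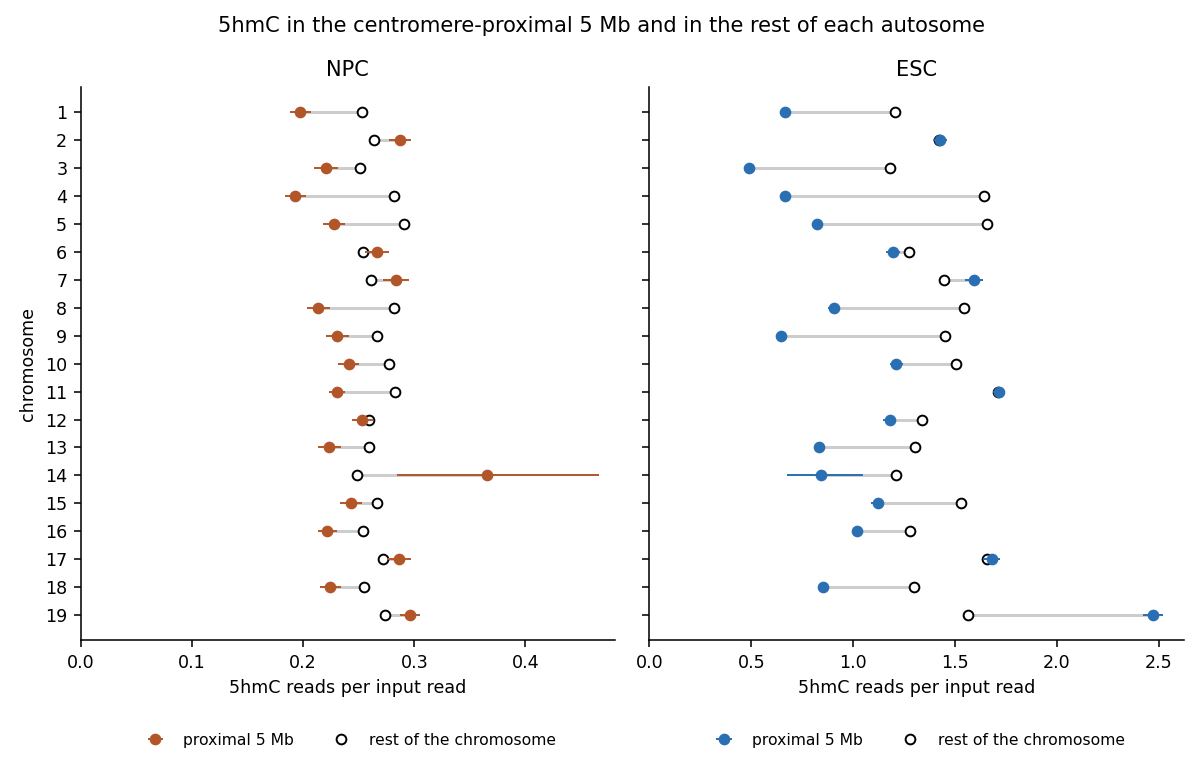
Level (5hmC reads per input read, linear axis) of the proximal 5 Mb (filled points, with 95% counting intervals) and of the rest of the chromosome (open points) for chromosomes 1 to 19, in NPC (left) and ESC (right). The proximal ESC levels run between 0.490 on chromosome 3 and 2.47 on chromosome 19, while the ESC levels of the rest lie between 1.18 and 1.71; chromosome 14 has a wide interval because 38 tiles were kept.

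Chromosome 19 stood at the high extreme. Its proximal level was 0.296 in NPC, against 0.274 in its rest, and 2.47 in ESC, against 1.56 in its rest. That made 1.08 times (1.05 to 1.12) the rest in NPC and 1.58 times (1.55 to 1.61) in ESC. Its NPC/ESC ratio of 0.1196 was the lowest of the 19 proximal ends and 0.6835 times that of its rest. Chromosome 11 had the next lowest ratio, 0.134, with an ESC level over the rest of 1.002 (0.984 to 1.021) and an NPC level over the rest of 0.814 (0.7895 to 0.840). Chromosomes 7, 17 and 2 were the others with ESC levels at or above the rest, at 1.59 against 1.45, 1.68 against 1.66 and 1.43 against 1.42, and their NPC levels were 1.05 to 1.09 times the rest.

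Chromosomes 4, 3, 9, 5 and 1 stood at the low extreme in ESC. The chromosome 4 end had an ESC level of 0.665, against 1.64 in its rest, and an NPC level of 0.193, against 0.282 in its rest, which were the lowest values over the rest in both cell types (0.684 in NPC and 0.405 in ESC). The chromosome 3 end had the lowest ESC level, 0.490, against 1.18 in its rest, while its NPC level was 0.220, against 0.251. Its NPC/ESC ratio of 0.450 (0.422 to 0.479) was 2.11 times that of its rest. Chromosome 9 had a ratio of 0.3575, 1.95 times that of its rest, with ESC at 0.646 against 1.45. Without its 6 tiles of very deep input, described below, that ratio was 0.308 (0.289 to 0.328), 1.68 times that of its rest. On chromosomes 5 and 1 the ESC level was 0.496 and 0.551 times the rest and the NPC level 0.7825 and 0.780 times. The remaining ends, of chromosomes 6, 8, 10, 12, 13, 15, 16 and 18, had ESC levels of 0.586 to 0.9405 times the rest and NPC levels of 0.756 to 1.05 times. The 38 tiles of chromosome 14 gave 0.3655 in NPC, against 0.248 in its rest, and 0.843 in ESC, against 1.21, with wide intervals.

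The proximal 5 Mb were not the extreme stretch of their chromosomes. Among the 12 to 39 windows of 5 Mb per chromosome, and with chromosome 14 left out, the proximal window was neither the lowest nor the highest of its chromosome in NPC or in ESC on any of 18 chromosomes. It was below the median of the other windows on 11 of 18 chromosomes in NPC and on 11 of 18 in ESC. Counted from the lowest, it ranked 2 of 31 on chromosome 4 in NPC, 2 of 24 on chromosome 9 in ESC and 11 of 12 on chromosome 19 in ESC. For the NPC/ESC ratio, chromosome 19 had the lowest of its 12 windows at the proximal end.

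Of 190 windows of 500 kb, 179 held at least 200 distinct reads in each input. Their NPC levels ran between 0.102 and 0.575 with a median of 0.227, and their ESC levels between 0.286 and 3.46 with a median of 0.824, spans of 5.66-fold and 12.1-fold. The spread was no wider than in the rest: the middle 90% of proximal windows lay between 0.1655 and 0.339 in NPC and between 0.351 and 2.44 in ESC, against 0.168 to 0.371 and 0.319 to 2.73 in the rest. Windows below the rest of their chromosome numbered 127 in NPC, against a background of 64.5% of all autosomal windows, and 133 in ESC, against 65.1%; the proximal shares were 70.95% and 74.3%. The NPC/ESC ratio was above the rest in 127 windows, against a background of 65.3%. The whole interval lay below the rest in 97 windows in NPC, 54.2% against a background of 45.2%, and in 126 in ESC, 70.4% against 61.4%. Windows whose whole interval lay above the rest made up 13.4% of proximal windows in NPC, where the background was 22.4%, and 21.2% in ESC, where it was 31.1%. In all 179 windows the interval of the NPC/ESC ratio lay below 1, and the ratio ran between 0.0951 and 0.725. In the rest the middle 90% of ratios lay between 0.116 and 0.613, so a ratio below 1 was not particular to proximal windows. NPC and ESC levels had a Pearson correlation of 0.648 on the log2 scale over these windows and 0.7575 over 4559 windows of the rest.

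**Figure D2:**
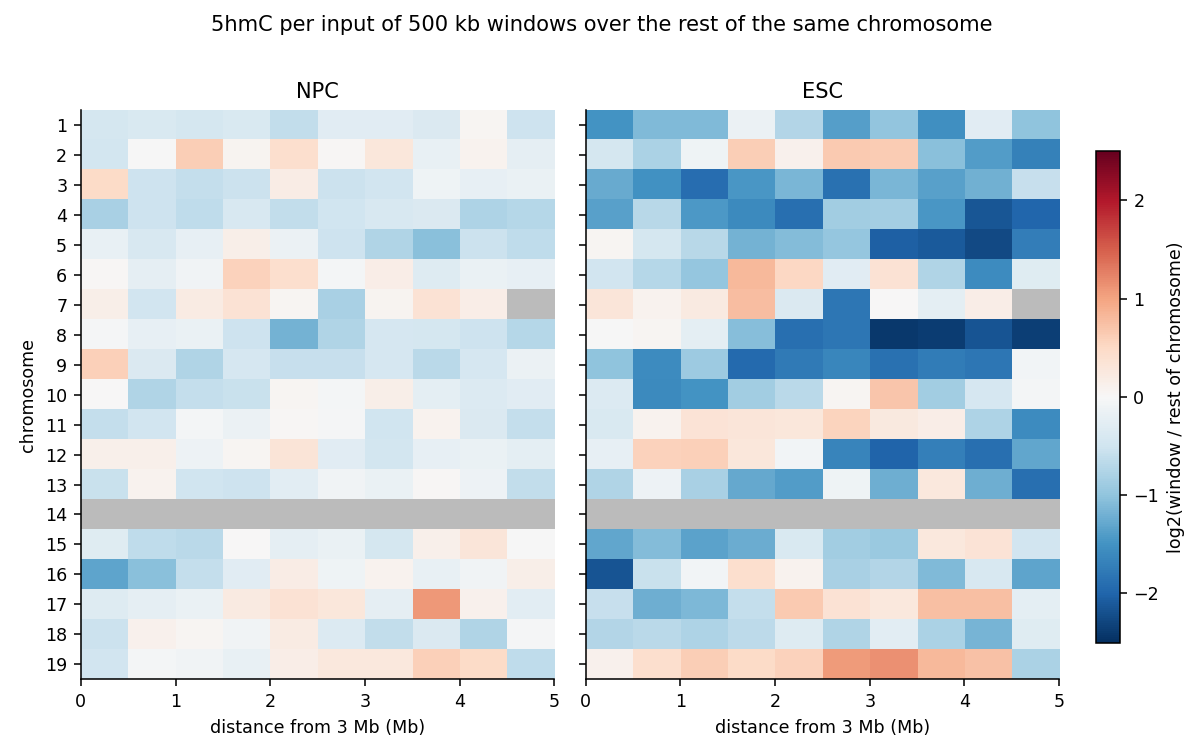
Level of each 500 kb window divided by the level of the rest of its chromosome, as log2 (colour; red above and blue below the rest), for NPC (left) and ESC (right), with chromosomes down the page and distance from 3 Mb across. Grey windows, including those of chromosome 14, held fewer than 200 distinct reads in an input. Chromosome 19 is red across most of its ESC row, and the ESC rows of chromosomes 1, 3, 4, 9 and 18 are blue in all 10 windows.

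On 5 chromosomes, 1, 3, 4, 9 and 18, all 10 ESC windows were below the rest, and on chromosomes 4 and 8 all 10 NPC windows were. On chromosome 19 a single ESC window was below the rest, the outermost one, at 7500001 to 8000000, with levels of 0.177 in NPC and 0.899 in ESC. The other 9 ESC windows of chromosome 19 were between 1.68 and 3.46, and the highest was at 6000001 to 6500000, where NPC had 736 5hmC and 2237 input reads (level 0.329) and ESC 6126 and 1771 (level 3.46). That window also had the lowest NPC/ESC ratio, 0.0951 (0.0862 to 0.105). The next lowest ratios were 0.0991 on chromosome 11 at 6000001 to 6500000, 0.101 on chromosome 19 at 5500001 to 6000000, 0.105 on chromosome 17 at 7000001 to 7500000 and 0.108 on chromosome 19 at 4000001 to 4500000. All 5 had ESC levels of 2.03 or more, while their NPC levels were 0.201 to 0.329. The ESC level divides the ratio, so high ESC levels in windows picked by a low ratio are in part built in.

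Chromosome 8 changed within its end. Its first 3 windows, up to 4500000, had ESC levels of 1.54, 1.60 and 1.30, and the 6 windows after 5000000 had levels of 0.291 to 0.442. NPC levels were 0.2458 to 0.2766 in the first 3 windows and 0.1248 to 0.2107 in those 6. The window at 6000001 to 6500000 held 150 5hmC and 712 input reads in NPC (level 0.211) and 150 and 516 in ESC (level 0.291), and its NPC/ESC ratio of 0.725 (0.563 to 0.933) was the highest of the proximal windows. Its neighbour at 6500001 to 7000000 had a ratio of 0.6925. The others of the 5 highest ratios were 0.7065 on chromosome 3 at 3000001 to 3500000, 0.642 on chromosome 12 at 7000001 to 7500000 and 0.574 on chromosome 5 at 7000001 to 7500000. ESC levels in these 5 windows were 0.291 to 0.4935 and NPC levels 0.2002 to 0.3487. Picking windows by a high ratio in part sets their low ESC levels.

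The lowest level of a window in both cell types was on chromosome 16 at 3000001 to 3500000, with 0.102 in NPC and 0.286 in ESC, but 16 of its 100 tiles were kept and the 2 deep tiles described below lie in it. With no minimum of input reads its level was 0.2055 in NPC and 0.401 in ESC, and without the deep tiles 0.144 and 0.463, and under neither was it the lowest. With the minimum of 5 reads, the second lowest NPC level was in the next window of chromosome 16, at 0.123 (0.104 to 0.1445), where the ESC level was 0.867. The highest NPC level was on chromosome 17 at 6500001 to 7000000, where 22 tiles were kept, with 0.575 (0.479 to 0.6895) in NPC and 2.79 (2.42 to 3.225) in ESC. Chromosome 2 at 4000001 to 4500000 had an NPC level of 0.407, 1.54 times its rest, with an ESC level of 1.325, 0.932 times its rest. Chromosome 9 at 3000001 to 3500000 had an NPC level of 0.401, 1.51 times its rest, and an ESC level of 0.724, 0.499 times its rest. Its high NPC value rested on a few tiles of very deep input described below: without tiles above 5 times the median input the NPC level was 0.650 times the rest.

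By distance, the summed levels were lower in the first 1.5 Mb, at 0.223 to 0.237 in NPC and 1.12 to 1.24 in ESC, than in the next 2 Mb, at 0.244 to 0.277 and 1.35 to 1.46. They were lowest in the last 0.5 Mb. In the first 0.5 Mb, at 3 to 3.5 Mb, the summed level was 0.233 (0.226 to 0.240) in NPC and 1.12 (1.10 to 1.14) in ESC, which was 0.875 and 0.780 times the rest. The NPC level was highest 2 to 2.5 Mb from the start, at 0.277 (0.270 to 0.285), and this was the one bin of 0.5 Mb in which NPC was above the rest, at 1.04 times. The ESC level was highest 3 to 3.5 Mb from the start, at 1.46 (1.44 to 1.49), the one bin with ESC above the rest, at 1.022 times (1.003 to 1.042). The bin 1.5 to 2 Mb from the start had ESC at 0.9967 times (0.9785 to 1.015), and with summed inputs as denominator at 1.018 times. The last 0.5 Mb had 0.216 (0.2085 to 0.223) in NPC and 0.852 (0.831 to 0.873) in ESC. There the NPC window was below the rest on 16 of 17 chromosomes with enough reads and the ESC window on 17 of 17. Of all 500 kb windows, 64.5% and 65.1% were below. This bin was singled out as the lowest of the 10 in both cell types, which in part sets these 2 counts. Chromosomes 11 and 19 set much of this course. Without them the ESC level was 0.994 in the first 0.5 Mb, at most 1.28 in any bin and 0.866 in the last. ESC was then below the rest in all 10 bins, and its lowest bin was 3.5 to 4 Mb from the start, at 0.857. Without them NPC was at 0.254, 0.221 and 0.232 in the bins of the first 1.5 Mb. It was at 0.231 to 0.2735 in those of the next 2 Mb and at 0.221 in the last bin. The order of the first 1.5 Mb and the next 2 Mb thus did not hold for each NPC bin.

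**Figure D3:**
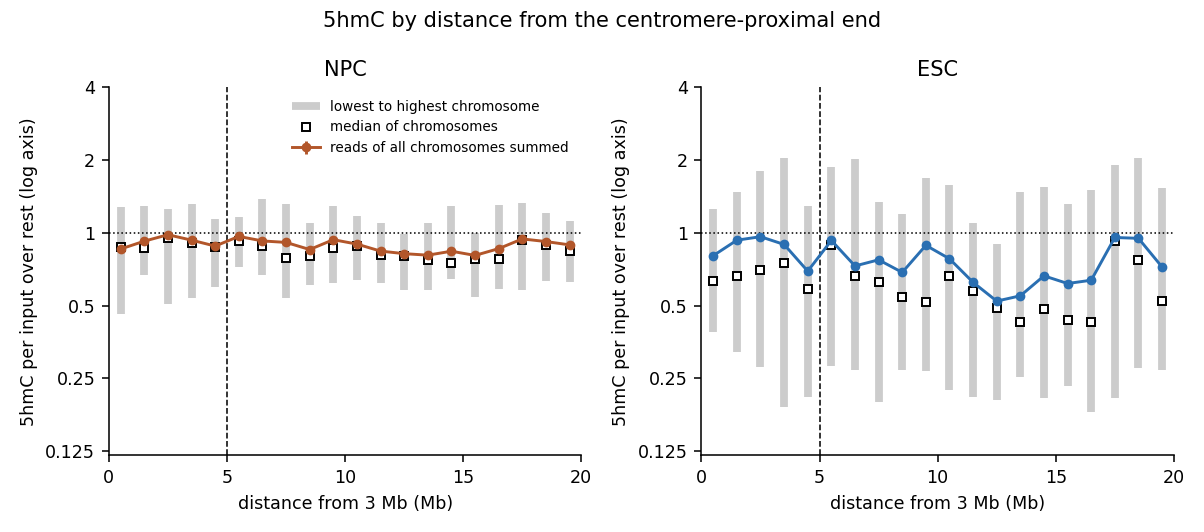
Level over the rest (log axis) in 1 Mb steps of distance from 3 Mb, in NPC (left) and ESC (right). Lines with points show the reads of all chromosomes summed, open squares the median of chromosomes and grey bars the lowest to the highest chromosome with at least 200 reads in each input. The dashed line marks the end of the proximal 5 Mb; the summed ESC value 12 to 13 Mb out is lower than each of the summed values in the first 5 Mb.

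Low levels did not end at 8 Mb. Steps of 1 Mb were below the rest in NPC and in ESC at each of the 20 distances up to 20 Mb from the start. The lowest summed ESC level lay 12 to 13 Mb from the start, at 0.747 (0.734 to 0.760), with 0.218 in NPC, and both cell types were below the rest there on 19 of 19 chromosomes. This distance was picked as the lowest of 20 in ESC, which in part sets that count. A share of all 1 Mb windows was not computed. Of all autosomal windows of 500 kb, 64.5% were below the rest in NPC and 65.1% in ESC, and of those of 5 Mb 60.7% and 59.7%. Across the first 5 Mb, the ESC steps were 1.15, 1.33, 1.38, 1.28 and 0.994. The median of chromosomes was lower than the sum in ESC at each of these distances, between 0.585 and 0.752 times the rest in the first 5 Mb.

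The innermost 100 kb, next to the assembly gap, stood apart from the following stretch in coverage. There 51.8% of tiles were kept, against 74.7% in the second 100 kb and 87.4% over the whole 5 Mb. The summed level was 0.207 (0.1965 to 0.218) in NPC and 0.898 (0.869 to 0.928) in ESC, 0.778 and 0.627 times the rest. With 16 chromosomes giving a value, 15 were below the rest in NPC and 15 in ESC, where 64.5% and 67.7% of all 100 kb windows were below. The NPC/ESC ratio was above the rest on 11 of the 16, or 68.75%, where 67.2% of all 100 kb windows were. The exception in NPC was chromosome 9, at 2.02 times its rest, and the exception in ESC was chromosome 13, at 1.10 times with an interval of 0.703 to 1.73. Several of these values rest on few reads: on chromosome 15 the innermost 100 kb held 1 5hmC and 13 input reads in NPC and 5 and 16 in ESC. Chromosome 11 alone gave 5038 of the 8335 NPC input reads, and without it the summed NPC level was 0.278, 1.05 times (0.976 to 1.13) the rest, and the ESC level 0.648, 0.458 times. Without chromosome 9 the summed NPC level was 0.584 times the rest. Without both, NPC was at 0.542 times (0.481 to 0.610) the rest and ESC at 0.4075 times. These choices were made after the values were seen.

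Tiles with very deep input were gathered in the proximal ends. A kept autosomal tile held a median of 24 reads in the summed inputs, and 47 tiles on all autosomes held more than 120, 5 times that median. Of these 47, 28 were proximal (59.6%), 0.169% of proximal tiles against 0.00435% of the rest. On chromosome 11, 15 adjacent tiles at 3025001 to 3100000 held 4981 NPC and 4519 ESC input reads, with up to 859 summed input reads in a tile, 35.8 times the median. They made up 22.0% of the NPC and 24.3% of the ESC input reads of that proximal end. Their level was 0.158 (0.146 to 0.170) in NPC and 1.06 (1.017 to 1.104) in ESC, below the rest of chromosome 11 in both. Counting all deposited reads gave 6147 5hmC and 4662 input reads in ESC, against 4789 and 4519 distinct ones. In NPC it gave 817 and 5184, against 787 and 4981. Without them the chromosome 11 end had an NPC level of 0.251, 0.886 times the rest, and an ESC level of 1.93, 1.125 times the rest.

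Within the chromosome 11 block 5hmC per input varied from tile to tile. ESC levels of its 15 tiles ran between 0.219 and 2.58, and NPC levels between 0.0584 and 0.311, while the ratio of NPC to ESC input reads stayed between 1.01 and 1.22 (1.30 over all kept autosomal tiles). The tile at 3040001 to 3045000 had most input, with 432 reads in NPC and 427 in ESC, and levels of 0.197 and 1.21. The tile at 3060001 to 3065000 had 410 and 363 input reads, and levels of 0.0829 in NPC and 0.2645 in ESC. Some 25 kb farther out, the tile at 3090001 to 3095000 had 394 and 350 input reads, and levels of 0.173 (0.131 to 0.224) in NPC and 2.58 (2.28 to 2.93) in ESC, with an NPC/ESC ratio of 0.0669. The ESC 5hmC library held 903 distinct reads in that tile and the NPC 5hmC library 68.

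**Figure D4:**
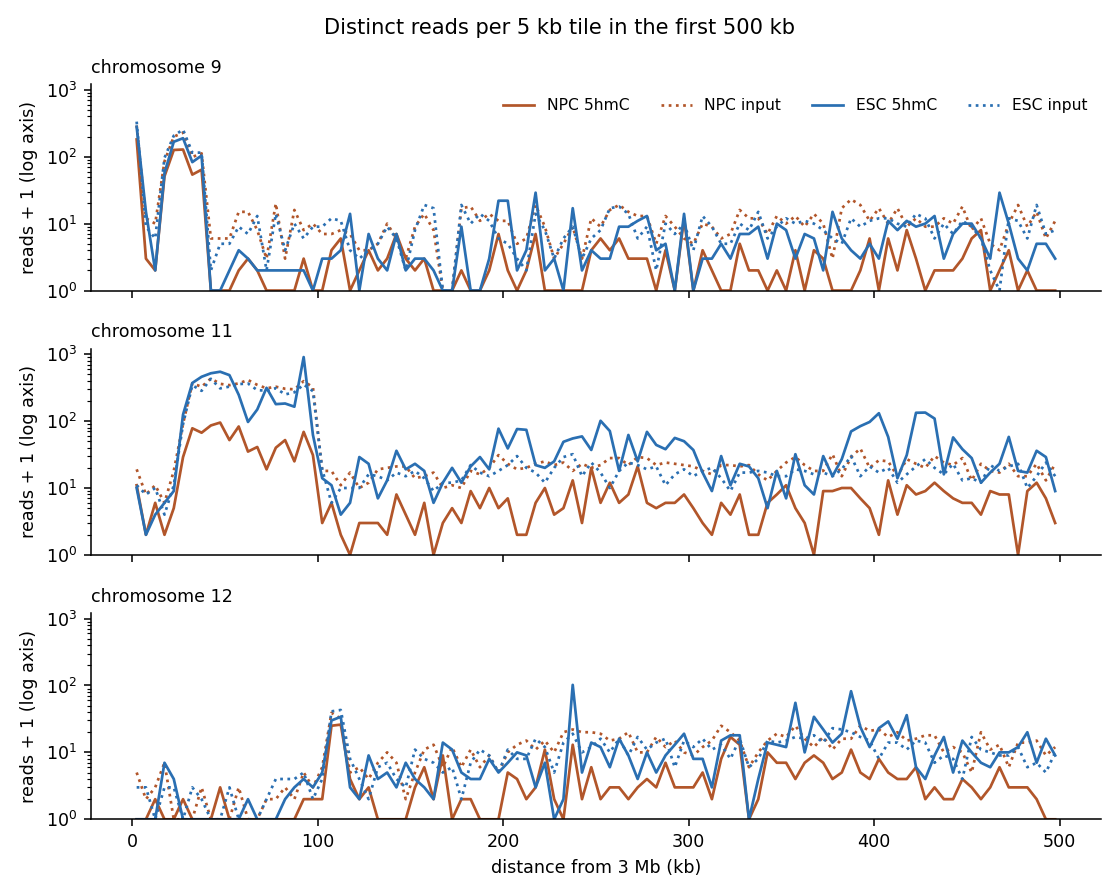
Distinct reads plus 1 (log axis) in 5 kb tiles over the first 500 kb of chromosomes 9, 11 and 12, for the NPC 5hmC, NPC input, ESC 5hmC and ESC input libraries. On chromosome 9 all 4 libraries rise together in the first 40 kb, and on chromosome 11 both inputs form a plateau between 25 and 100 kb over which the ESC 5hmC line varies.

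On chromosome 9 the deep tiles lay in the first 40 kb and had high NPC levels. Its 6 deep tiles held 598 5hmC and 1010 input reads in NPC (level 0.592, 0.534 to 0.656) and 874 and 1114 in ESC (level 0.785, 0.717 to 0.858). The NPC level was 2.23 times the rest of chromosome 9 and the ESC level 0.541 times. The NPC/ESC ratio of 0.755 (0.660 to 0.863) was 4.115 times that of the rest. Many positions there carried several reads: counting all deposited reads gave 900 5hmC and 1919 input reads in NPC and 1569 and 2212 in ESC. The ratio of NPC to ESC input was 0.907 in these tiles, below the 1.30 of all kept tiles. Without them the chromosome 9 end had levels of 0.192 in NPC and 0.625 in ESC, 0.723 and 0.431 times its rest, against 0.868 and 0.445 times with them. Deep tiles on chromosomes 4 and 16, 2 each, held little 5hmC, with levels of 0.0532 and 0.0332 in NPC and 0.103 and 0.0565 in ESC.

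Tiles enriched for 5hmC were fewer in the proximal ends than elsewhere. A tile was called enriched at 10 or more 5hmC reads and at least 2-fold over its own input, after each library was scaled to its distinct reads, so each cell type is measured against its own average. In NPC 730 of 16612 proximal tiles were enriched, 4.39% (4.09 to 4.72), against 6.14% of the rest and a background of 6.08% of all kept tiles. This count turned on the read minimum: with no minimum 2018 tiles (12.15%) passed, against 13.5% of the rest, and with at least 20 reads 120 (0.722%), against 1.11%. In ESC 1392 were enriched, 8.38% (7.96 to 8.81), against 10.85% of the rest and a background of 10.8%, and with no minimum 1444 (8.69%), against 11.1% of the rest. NPC thus had fewer enriched tiles than ESC with the minimum and more without it. The share was below that of the rest on 14 of 19 chromosomes in NPC and on 13 of 19 in ESC. No such count was made over all windows of 5 Mb, so these 2 counts have no background to be read against. Tiles enriched in both cell types numbered 253, 34.7% of the NPC and 18.2% of the ESC tiles, and in the rest such tiles were 36.9% of the NPC and 20.9% of the ESC tiles. They made up 1.52% of proximal tiles, against a background of 2.24% of all kept tiles.

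ESC enrichment was concentrated on few chromosomes. Chromosome 19 had 102 enriched tiles of 928 in NPC (10.99%) and 286 in ESC (30.8%), against 7.22% and 13.7% of its rest. Chromosome 11 had 70 of 982 in NPC (7.13%), below the 8.83% of its rest, and 186 in ESC (18.9%), above the 15.3% of its rest. Chromosome 17 had 76 of 805 in NPC (9.44%) and 127 in ESC (15.8%), against 6.92% and 14.4% of its rest. Chromosomes 11 and 19 together held 472 of the 1392 ESC tiles, 33.9%, with 11.5% of the kept proximal tiles, and without them 3.795% of proximal tiles were enriched in NPC and 6.26% in ESC, against 5.965% and 10.5% of the rest of the remaining chromosomes. At the other extreme, chromosome 3 had 11 enriched tiles in NPC and 12 in ESC of 936, and chromosome 4 had 10 and 14 of 904.

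The 1869 proximal tiles enriched in either cell type divided by NPC/ESC ratio much as enriched tiles did in general. The ratio was at least 2-fold below the autosomal ratio of 0.186 in 817 of them, 43.7%, against a background of 41.5%, and at least 2-fold above it in 436, 23.3%, against 21.6%. Counted around equality, 1539 (82.3%) had a ratio of 0.5 or lower, against a background of 84.6%, and 25 (1.34%) a ratio of 2 or higher, against 1.03%.

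Enriched tiles lay side by side, 5 or more together, in 2 runs in NPC and 17 in ESC, or 1.204 and 10.2 per 10000 kept tiles, against 95 runs in NPC and 1012 in ESC in the rest, 2.18 and 23.2 per 10000. With no read minimum there were 4 proximal runs in NPC and 17 in ESC, 2.41 and 10.2 per 10000, against 3.48 and 23.2 in the rest. With at least 20 reads NPC had 1 proximal run, 0.602 per 10000, against 7 runs and 0.160 per 10000 in the rest. ESC then had 9.63 per 10000 against 23.0. The NPC difference thus rested on few runs and turned round with the minimum. Of the 17 ESC runs at the minimum of 10 reads, 9 were on chromosomes 11 and 19. The longest covered 95 kb of chromosome 19, 6420001 to 6515000, with levels of 0.533 (0.455 to 0.622) in NPC and 4.24 (3.79 to 4.76) in ESC. The second longest covered 60 kb of chromosome 15, 7085001 to 7145000, with 0.440 in NPC and 5.54 in ESC and a ratio of 0.0794 (0.0600 to 0.105). The ESC run with the lowest ratio, 0.0288 (0.0149 to 0.0555), was on chromosome 8 at 3530001 to 3555000, in the part of that end where ESC levels were high. The NPC runs were on chromosome 19 at 5805001 to 5830000, with 0.794 in NPC and 2.67 in ESC, and on chromosome 9 at 3015001 to 3040000, within the deep tiles, with 0.581 in NPC and 0.762 in ESC.

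At single tiles, the extreme ESC levels were on chromosomes 19 and 11. The tile on chromosome 19 at 6320001 to 6325000 held 14 5hmC and 22 input reads in NPC and 203 and 20 in ESC, levels of 0.636 and 10.15. Its neighbour at 6315001 to 6320000 had 4 5hmC and 28 input reads in NPC, against 198 and 20 in ESC, with a ratio of 0.0144 (0.00460 to 0.0453). The other 3 of the 5 highest ESC tiles had ESC levels of 7.75 to 8.545 and NPC levels of 0.107 to 0.487. The highest NPC tile was on chromosome 17 at 6950001 to 6955000, in the window of highest NPC level, with 37 5hmC and 20 input reads in NPC (level 1.85, 1.05 to 3.36) and 80 and 21 in ESC (level 3.81, 2.33 to 6.49). Of the 5 highest NPC tiles, 3 were on chromosome 19 and all had ESC levels of 2.79 or more.

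Tiles with at least 20 reads in a 5hmC library and in each input numbered 533, and 532 of them reached that minimum in the ESC 5hmC library and 45 in the NPC one. The set was thus nearly all chosen by high ESC reads, so its count of tiles with NPC above ESC says nothing of how common they are. There were 3, and in none did the interval lie above 1. The highest ratio, 1.91 (0.753 to 4.84), was on chromosome 16 at 5455001 to 5460000, with 23 5hmC and 23 input reads in NPC and 11 and 21 in ESC. The others were on chromosome 12 at 3110001 to 3115000, at 1.03, and on chromosome 9 at 3015001 to 3020000, at 1.01. The chromosome 12 tile lies among adjacent tiles with reads largely on one strand: 96% of its NPC 5hmC and 96.8% of its NPC input reads were on the plus strand, and none of those of the tile before it were. The part of this strand pattern in the ratios was not tested. At the opposite extreme, 4 of the 533 tiles held no NPC 5hmC read. The choice by high ESC reads favours low ratios, so this count too says nothing of how common such tiles are. One of the 4 was on chromosome 19 at 7300001 to 7305000, with 0 5hmC and 25 input reads in NPC and 52 and 24 in ESC. Its NPC reads allow an NPC level of up to 0.12. The lowest ratio with a read, 0.00935 (0.00213 to 0.0411), was on chromosome 19 at 5950001 to 5955000, with 2 and 33 reads in NPC and 188 and 29 in ESC.

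Windows of 100 kb were also compared at a like ESC level, where the NPC/ESC ratio of the proximal ends was below that of the rest in some groups and above it in others. In all, 869 proximal windows were placed in 10 groups of ESC level, which were set as equal shares of the windows in the rest. Of the proximal windows, 28.9% fell in the 3 lowest groups and 22.1% in the 3 highest. The shares of the rest, 30.0% and 30.0%, were fixed by the way the groups were set. The proximal NPC/ESC ratio ran between 0.630 in the lowest group and 0.114 in the highest, and in the rest between 0.669 and 0.117. Within groups the proximal ratio was 0.875 to 1.03 times that of the rest. It was below the rest in 8 of 10 groups, with the whole interval below 1 in 3 of them, which were the sixth (0.891, 0.863 to 0.921), the eighth (0.951) and the ninth (0.875, 0.845 to 0.9055). It was above the rest in the fourth, at 1.006, and in the fifth, which held most proximal windows, 139, at 1.032, with an interval that did not reach below 1 and ended at 1.065. The ESC level both sets the group and divides the ratio, so the slope across groups is in part built in. In the highest group the proximal ESC level was 0.943 (0.928 to 0.959) times that of the rest. It was 0.979 times in the fifth group (0.9609 to 0.9978) and in the eighth (0.9605 to 0.9983). The ESC levels were thus not equal in these groups. In the fifth group the proximal NPC level was 1.011 times that of the rest, with an interval of 0.9857 to 1.036.

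**Figure D5:**
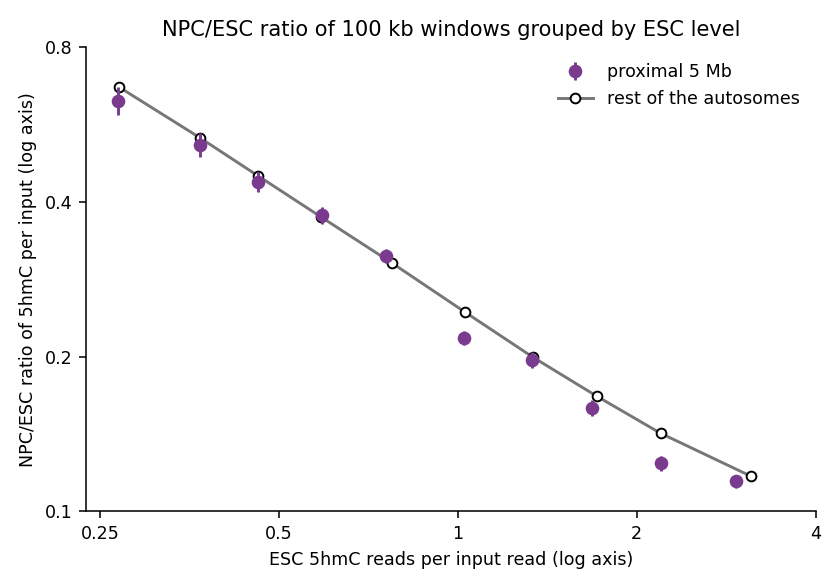
NPC/ESC ratio of levels (log axis) against ESC level (log axis) for 100 kb windows in 10 groups of ESC level, for the proximal 5 Mb (filled points, with 95% counting intervals) and the rest of the autosomes (open points, joined). The ratio falls as the ESC level grows, and the proximal points lie between 0.875 and 1.03 times the rest of the same group.

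The inputs and the stacking of reads differed somewhat between proximal ends and the rest. The ratio of NPC to ESC input reads was 0.9775 (0.971 to 0.984) times that of the rest, and between 0.939 on chromosome 11 and 1.04 on chromosome 5. Positions with more than 1 read made up 1.81% of proximal positions in the NPC 5hmC library and 0.534% in its input, against 1.47% and 0.314% in the rest. In ESC they made up 2.57% in the 5hmC library and 0.597% in the input, against 2.06% and 0.3035% in the rest. The part of these differences in the levels was not tested beyond the alternatives given in the closing section.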

How the data were processed

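The deposited files have no header; each line gives a read position, its strand and a whole-number read count, and in these deposited counts 97.9% to 99.7% of positions held 1 read. The submitters' processing notes name Bowtie 0.12.7 and build mm9; the treatment of reads with several matches is not given in the sources used here. Reads had been extended to 350 bp. Each position was used as 1 distinct read, placed by its midpoint. Ratios of 2 counts have Clopper-Pearson 95% intervals, and ratios of more counts a normal approximation on the log scale. Enrichment used a pseudocount of 0.5 reads and was tested on simulated data. Values were computed with scipy 1.17.1, pandas 2.3.3 and numpy 2.4.6 under Python 3.11.15. There was 1 library per group, so no p-value was computed, and PCR copies are not independent molecules. Named windows (at least 200 reads in each input) and tiles (at least 20 reads in a 5hmC library and each input) were the 5 highest or lowest by level, ratio or input. The regions and lists were chosen with earlier results of these data known. The reference used here is of another build, so genes and sequences were not analysed here. Reads before 3 Mb on chromosomes 9 and 17 were left out.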

Additional observations from a re-analysis of the deposited data

Results flagged for a closer look

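On chromosome 6 the proximal end lay above its rest in NPC, at 1.05 times (1.01 to 1.09), and below it in ESC, at 0.9405 times (0.914 to 0.968). On chromosome 14 it lay above the rest in NPC, at 1.47 times (1.16 to 1.87), and below it in ESC, at 0.696 times (0.562 to 0.861). Both drew attention because the 2 cell types fell on opposite sides of the rest, and with 1 library per group that difference was not tested. The chromosome 14 values rest on 38 kept tiles with 91 5hmC and 249 input reads in NPC and 156 and 185 in ESC.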

How the results depend on the processing

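No paired analysis was possible because each group held 1 library. Under the alternatives run, the proximal level stayed below the rest in NPC and in ESC, and the NPC/ESC ratio stayed above it. For the level over the rest in NPC (0.916), in ESC (0.864) and for the quotient of ratios (1.06), the values that left the interval were the following; the cause was not tested. With at least 20 summed input reads NPC was 0.907. Without tiles above 5 times the median input ESC was 0.8706. With the summed inputs as denominator they were 0.907, 0.8751 and 1.037. For the first 2.5 Mb ESC was 0.8859 and the quotient 1.042, and for 10 Mb 0.8273 and 1.106. Without the first 100 kb ESC was 0.8744. As a median over chromosomes they were 0.8765, 0.7327 and 1.246. Without chromosomes 11 and 19, chosen after seeing the data, ESC was 0.7425 and the quotient 1.222. With 1 chromosome left out at a time, NPC ran between 0.8996 (without 19) and 0.9291 (without 4), ESC between 0.7866 (without 19) and 0.8917 (without 4) and the quotient between 1.037 (without 9) and 1.144 (without 19). Enriched tiles in NPC (730) numbered 2018 with no minimum of 5hmC reads and 120 with at least 20. In ESC (1392) they numbered 829 with a pseudocount of 5 reads, where NPC had 821. In tiles of 10 kb, of which fewer are tested, they numbered 593 in ESC and 523 in NPC. Shares of the rest are not given for the pseudocount of 5 or the 10 kb tiles. Those counts thus do not compare proximal ends with the rest. Across settings 13 to 15 chromosomes were below the rest in NPC and 14 to 17 in ESC. Of 10 distance bins, 9 were below the rest in ESC, and 8 with all deposited reads or with summed inputs. Of 300 recomputed values of named windows and tiles, 280 stayed within their interval and 19 moved, 13 of them with at least 20 summed input reads. One turned round: the NPC level of chromosome 9 at 3000001 to 3500000 was 1.51 times the rest and 0.6498 times without tiles above 5 times the median input. Depth limits NPC most, with 3.30 5hmC reads per kept proximal tile, against 13.2 in ESC.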

Other observations

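The proximal 5 Mb of chromosome X, not among the autosomal ends, differed from most of them in its level over the rest. Its level was 0.249 in NPC (0.231 to 0.267) and 1.29 in ESC (1.23 to 1.35), from 540 kept tiles. The summed autosomal ends had like levels, 0.244 and 1.24. The X levels were 1.16 and 1.90 times the rest of chromosome X, and the NPC/ESC ratio of 0.193 was 0.6105 times that of its rest. Before position 3000000, there were 22 5hmC and 31 input reads in NPC and 21 and 31 in ESC on chromosome 9. Chromosome 17 had 6 5hmC reads in NPC and 3 in ESC there, with no input read in either. On chromosome 14, kept tiles became usual beyond 8500000, with 93 of 100 between 8500001 and 9000000.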
